A study of Rattus norvegicus with 2 samples.

Results

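The genes described here encode translation initiation factors (eIF), elongation factors (eEF) and proteins named after them, in rat microglial cells, which are the brain's own macrophages. The proteins named after them include kinases of eIF2 and eEF2, the eIF4E-binding proteins and methyltransferases of eEF1A. All these genes are called translation factor genes, factor genes or members below. They were chosen by symbol alone: every probe set that the platform annotation assigned to exactly 1 gene whose symbol starts with Eif and a number, with Eef1 or with Eef2. This gave 60 genes with 93 probe sets, of 14217 genes named alone by a probe set. One array held RNA of Sprague Dawley microglial cells kept for 3 h without oxygen and glucose (oxygen-glucose deprivation, OGD), a treatment used to model ischaemia in culture. The other array held RNA of resting microglial cells of that strain with no exposure. Both were grown in serum-containing medium, and the labels do not say how many animals or cultures gave each RNA. With 1 array per group there are no replicates, so no difference below has a test or an error across cultures.

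Protein synthesis starts when eIF2, carrying GTP and the initiator methionyl-tRNA, joins the small ribosomal subunit together with eIF1, eIF1A, eIF3 and eIF5. The eIF4 factors bring the mRNA by its cap, eIF5B joins the large subunit, and eEF1 and eEF2 then deliver the aminoacyl-tRNAs and move the ribosome along. Cells short of oxygen or nutrients are known to slow both ends of this pathway by modifying proteins: the Eif2ak kinases phosphorylate eIF2, the Eif4ebp proteins hold back eIF4E when the kinase mTOR is inactive, and the kinase eEF2K inhibits eEF2. Arrays measure mRNA, so none of these modifications is seen in the values below.

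The deposited values are linear intensities, 1 per probe set and array. Each array's median over its 31042 non-control probe sets served as the floor of measurement, 19.7 on the OGD array and 19.6 on the resting array, and a gene was represented by its brightest probe set. Of the 60 genes, 52 exceeded the floor on both arrays and 8 on neither. Over the whole array 9580 genes exceeded it somewhere. The labelled cell type was checked by 14 microglial markers with a probe set of their own. Their summed intensity was 1412 on the OGD array and 1473 on the resting array. Most of it came from Trem2, with 582.6 on the OGD array and 604.2 on the resting array, and Cd68, with 359.7 and 370.7. The other microglial markers had at most 64.4 on the OGD array and 66.9 on the resting array (Cd14). The highest marker of another cell type, the neuronal Syn1, had 56.8 on the OGD array and 48.1 on the resting array. The lists differ in length, so their sums are not comparable with each other. All 14 exceeded the floor on 1 array or both, and Csf1r was under it on the OGD array (19.3 on the OGD array and 21.9 on the resting array). Lists were also fixed for 5 other cell types. Astrocyte markers summed to 106.8 on the OGD array and 87.5 on the resting array, and neuron markers to 103.7 on the OGD array and 94.3 on the resting array. Oligodendrocyte lineage markers summed to 103.8 on the OGD array and 102.5 on the resting array. Fibroblast markers summed to 95.4 on the OGD array and 86.1 on the resting array, and endothelial markers to 75.3 on the OGD array and 63.7 on the resting array. Of the 22 markers of other cell types on the array, 8 were measured, 6 of them higher and 2 lower on the OGD array. The sums also include the markers under the floor. Gfap, the astrocyte filament protein, had 36.9 on the OGD array and 27.4 on the resting array, and the glutamate transporter gene Slc1a2 had 32.0 on the OGD array and 23.8 on the resting array. Both were 1.35-fold higher, which is more than any translation factor gene differed, and Vwf was 1.22-fold higher, with 56.4 on the OGD array and 46.3 on the resting array. Of the 14 microglial markers 13 were lower on the OGD array and 1 was higher. Among all measured genes 51.3% were lower and 42.8% higher. The part of other cell types in the differences below was not tested, and in RNA of a whole culture fewer cells of a type and less RNA per cell cannot be told apart.

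The study looked for mRNAs that OGD raised or lowered by at least 1.5-fold. None of the 52 measured translation factor genes reached that size, beside 0.115% of all measured genes. At a smaller fold of 1.2, taken to describe small differences, 0 were higher on the OGD array, beside 3.56% of all measured genes. On the lower side there were 3, which is 5.77% of the members beside 3.97% of all measured genes. In either direction the 3 make 5.77%, beside 7.53%. Each rests on few genes and is near the background share. The 3 genes were Eif1ad, Eif4e3 and Eef2k.

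Most of the factor genes had almost the same value on both arrays. Within 1.1-fold lay 45 of 52 members (86.5%), against 67.6% of all measured genes. Among genes with a mean intensity of 100 or more, where the SD of the differences over all measured genes was 0.12, against 0.16 for dimmer genes, these shares were 88.1% of 42 members and 75.1% of 2878 genes. The SD of the log2 differences, taken as OGD minus resting throughout, was 0.11 over the members and 0.15 over all measured genes. At a mean intensity of 100 or more it was 0.107 over the members and 0.122 over all measured genes. In that range 2 of 42 members (4.76%) were past 1.2-fold, beside 3.75% of all measured genes. Lower on the OGD array were 29 members (55.8%), higher were 21 (40.4%) and exactly equal were 2. These shares are near those of all measured genes, 51.3% lower and 42.8% higher. After quantile scaling 23 members were lower and 27 higher, and after loess scaling 25 were lower and 27 higher. The median difference was -0.011 over the members and -0.0076 over all measured genes, and the members' median became 0.0095 after quantile and 0.0099 after loess scaling. It thus has no settled direction.

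**Figure D1:**
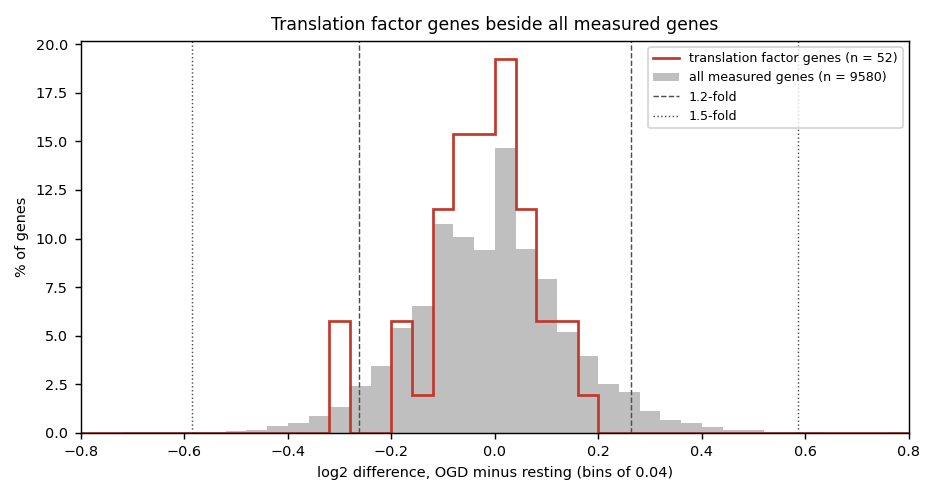
Share of genes in % (vertical axis) by log2 difference between the OGD and the resting array (horizontal axis, bins of 0.04), for the 52 translation factor genes (red line) and all 9580 measured genes (grey). The members lie inside the 1.5-fold lines, and 3 of them lie beyond the 1.2-fold line on the lower side.

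**Figure D2:**
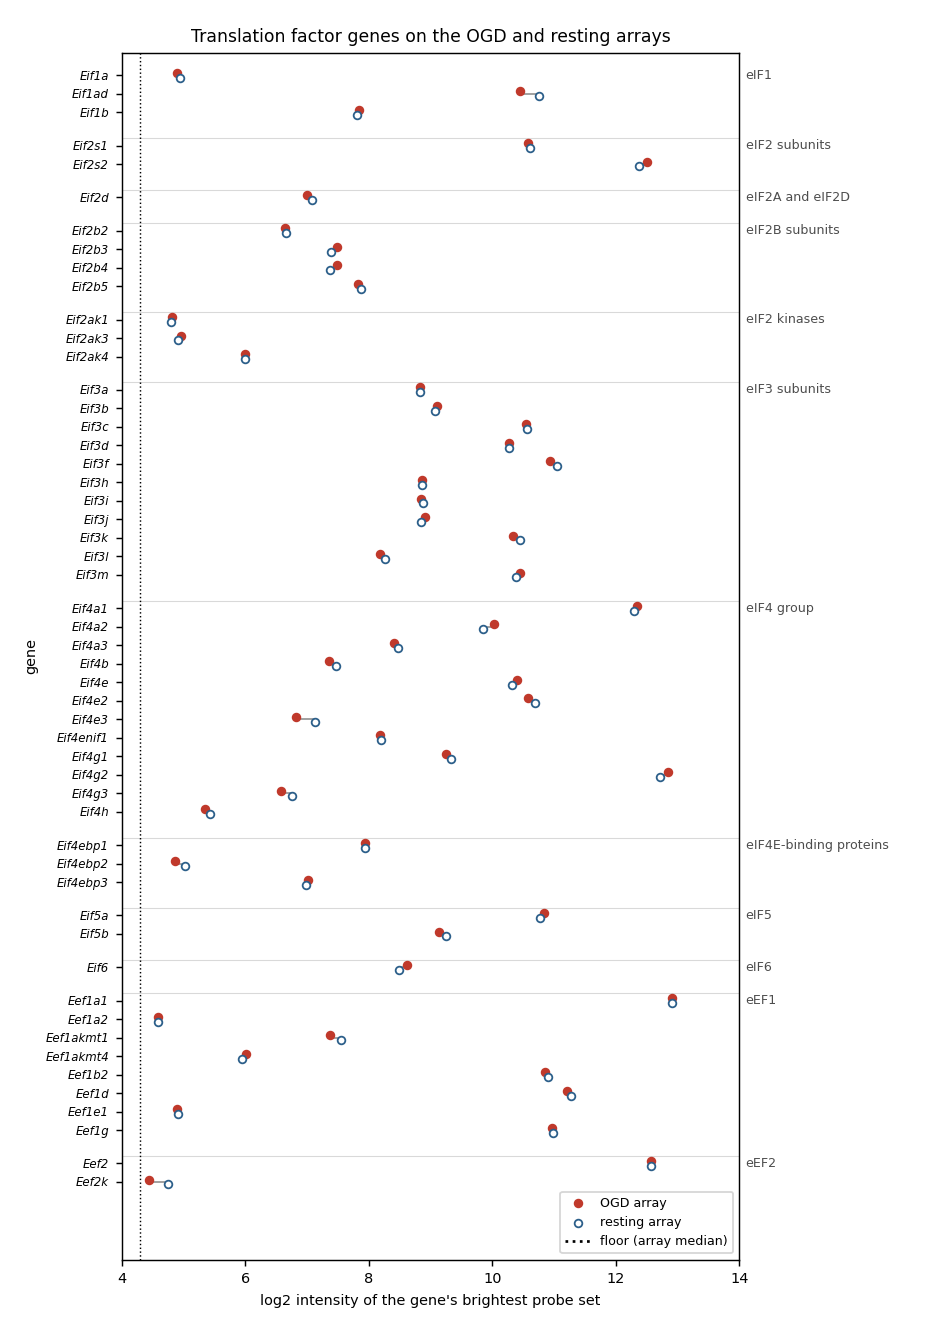
Log2 intensity of the brightest probe set of each measured factor gene (horizontal axis) on the OGD array (filled red) and on the resting array (open blue), with genes on the vertical axis by factor group. Points of a gene nearly coincide for most genes, and the widest gaps are those of Eif1ad, Eif4e3 and Eef2k.

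OGD withholds oxygen, and the oxygen-regulated factor HIF is known to bind the letters ACGTG, so the 250 bases before the annotated start of the genes were searched for them on both strands. Promoter sequences were taken from RefSeq (build GRCr8) and were found for 55 of the 60 genes. They were missing for Eif4b, Eif4ebp1, Eif3h, Eef1d and Eif4e3, the last of which was past 1.2-fold lower. ACGTG was present in 25 of these 55 windows (45.5%), against 16.9% of 27457 promoters of the same length and 17.6% of those of protein-coding genes. The E-box CACGTG, which MYC-family factors are known to bind and which contains ACGTG on both strands, was in 11 of the 55 windows, against 5.79% of all promoters. The letters TGATGNAA, the core of the element that ATF4 binds under amino acid shortage, were in 1 window (1.82%, against 3.27%), that of Eif2s2. A match describes the letters and is not evidence of binding. Neither background was matched for base composition, and its part in these shares was not tested. The 23 measured members with ACGTG in the window had a median difference of 0.0051, with 12 higher and 11 lower on the OGD array. The 24 without it had a median of -0.023, with 8 higher, 15 lower and 1 equal. Among all measured genes 42.8% were higher and 51.3% lower.

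The sequences are the windows of Eif1ad (chr1:212103465-212103714, plus strand) and Eef2k (chr1:184824170-184824419, plus strand), both past 1.2-fold lower, then of Eif4a2 (chr11:91275324-91275573, minus strand), the member with the highest difference, and Eif4e (chr2:229740503-229740752, plus strand), whose probe sets were all higher. Each runs 5′ to 3′ on the gene's strand up to the base before the start, and capitals mark ACGTG on either strand.
Eif1ad: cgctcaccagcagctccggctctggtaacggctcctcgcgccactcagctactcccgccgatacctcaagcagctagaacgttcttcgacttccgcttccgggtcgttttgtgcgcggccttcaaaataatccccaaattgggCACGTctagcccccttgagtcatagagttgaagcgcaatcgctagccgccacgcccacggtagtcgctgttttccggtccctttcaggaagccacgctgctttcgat
Eef2k: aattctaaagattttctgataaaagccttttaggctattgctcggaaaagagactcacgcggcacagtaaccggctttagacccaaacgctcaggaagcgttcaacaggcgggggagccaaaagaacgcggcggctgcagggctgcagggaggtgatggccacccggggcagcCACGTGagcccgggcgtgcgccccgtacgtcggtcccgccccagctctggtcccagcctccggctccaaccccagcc
Eif4a2: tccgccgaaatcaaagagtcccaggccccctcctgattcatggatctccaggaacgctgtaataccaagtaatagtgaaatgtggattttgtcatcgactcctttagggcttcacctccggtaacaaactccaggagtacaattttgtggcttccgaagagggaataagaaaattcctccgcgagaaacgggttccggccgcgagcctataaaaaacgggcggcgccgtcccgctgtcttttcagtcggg
Eif4e: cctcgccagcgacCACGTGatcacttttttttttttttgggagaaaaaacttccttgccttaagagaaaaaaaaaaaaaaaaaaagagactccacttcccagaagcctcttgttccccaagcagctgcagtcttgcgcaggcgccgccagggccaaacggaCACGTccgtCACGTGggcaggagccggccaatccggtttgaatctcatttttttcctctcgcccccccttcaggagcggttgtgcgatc
The window of Eif1ad holds ACGTG once and that of Eef2k holds it within 1 E-box. Eif4e has 2 E-boxes and a further single match, while Eif4a2 has none and carries the TATA letters TATAAA, which 13.1% of all promoters and 5.45% of the members' have.

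Start site selection is the work of eIF1 and eIF1A, which hold the small subunit open for scanning. Eif1ad, which encodes a protein with an eIF1A-like domain, had an intensity of 1399.8 on the OGD array and 1734 on the resting array, a 1.24-fold lower value with a log2 difference of -0.31. This was the lowest difference of all 52 members, and it lay between -0.31 and -0.28 under all alternatives run for it. Its single probe set leaves no second measurement. Eif1b, a close relative of eIF1, had 229 on the OGD array and 224 on the resting array (log2 difference 0.030). Eif1a had 29.6 on the OGD array and 30.8 on the resting array, and its other 3 probe sets were under the floor. Eif1ax, the X-linked eIF1A gene, was under the floor on both arrays.

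The subunits of eIF2 itself differed little. Eif2s1 encodes the alpha subunit, the one the stress kinases phosphorylate. It had 1529 on the OGD array and 1566 on the resting array, a log2 difference of -0.034 that became 0.037 after quantile scaling. The beta subunit gene Eif2s2 was 1.09-fold higher, with 5839 on the OGD array and 5338 on the resting array (log2 difference 0.13). The gamma subunit genes Eif2s3 and Eif2s3y had no probe set of their own above the floor. Eif2d, whose product can deliver tRNA to the ribosome without eIF2, had 127.6 on the OGD array and 135.8 on the resting array (log2 difference -0.090), and Eif2a was under the floor.

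Of the 4 kinases that phosphorylate eIF2, 3 were measured, and all 3 had nearly equal values on both arrays. Eif2ak3, which encodes PERK, the kinase of endoplasmic reticulum stress, had 31.2 on the OGD array and 30.2 on the resting array. Eif2ak4, which encodes the amino acid sensor GCN2, had 63.8 on the OGD array and 63.5 on the resting array. Eif2ak1, which encodes the haem-regulated kinase HRI, had 28.1 on the OGD array and 27.7 on the resting array in its brightest probe set. The other probe set of Eif2ak1 had 26.7 on the OGD array and 27.5 on the resting array, so its 2 log2 differences, 0.020 and -0.046, differ in sign. Eif2ak2, which encodes the double-stranded RNA sensor PKR, was at 3.72 on the OGD array and 3.35 on the resting array, both under the floor. In the brightest probe sets the group's log2 differences ran from 0.0055 to 0.047. Eif2ak1 and Eif2ak3 were dim: with a higher floor, at the 70th percentile of each array, only Eif2ak4 was measured.

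The exchange factor eIF2B recharges eIF2 with GTP and is what phosphorylated eIF2 blocks. Its 4 measured subunits split evenly. Eif2b4 had 178 on the OGD array and 166 on the resting array (log2 difference 0.11), and Eif2b3 had 179.7 on the OGD array and 167.8 on the resting array (0.099). Eif2b5, the catalytic epsilon subunit, had 227 on the OGD array and 235 on the resting array (-0.049), and Eif2b2 had 99.5 on the OGD array and 101.7 on the resting array (-0.031). Eif2b1 was under the floor on both arrays, at 13.2 on the OGD array and 16.3 on the resting array. The group median was 0.034, and -0.031 with the lower floor or none, where Eif2b1 enters.

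The scaffold eIF3, the largest initiation factor, was represented by 11 genes, all of them measured, with differences in both directions. Differences of the brightest probe sets ran from -0.12 for Eif3f to 0.069 for Eif3j, with 5 higher, 6 lower and 0 past 1.2-fold. The median of -0.0070 was 0.0021 after median centring, 0.032 after quantile and 0.027 after loess scaling. Eif3a, the largest core subunit, had 456.7 on the OGD array and 455.1 on the resting array. Eif3d, the subunit that can bind the cap of some mRNAs, had 1231 on the OGD array and 1237 on the resting array, and Eif3h had 467 on the OGD array and 465 on the resting array. Eif3f had 1947 on the OGD array and 2113 on the resting array. Eif3j, a loosely bound subunit, had 481 on the OGD array and 459 on the resting array in its brightest probe set. The other probe set of Eif3j went the other way, with 33.7 on the OGD array and 34.7 on the resting array (log2 difference -0.042). In their brightest probe sets Eif3b, Eif3c, Eif3i, Eif3k, Eif3l and Eif3m lay between Eif3f and Eif3j. The SD over the 11 subunit differences was 0.065, below the 0.12 between probe sets of 1 member gene. That spread includes dim probe sets and is not the error of the brightest ones. With 1 array per group the order of the subunits is not resolved.

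The factors that recruit mRNA spanned the widest range of the 12 groups, with differences from -0.31 to 0.18 over 12 genes. Of these 4 were higher and 8 lower, where 42.8% of all measured genes were higher and 51.3% lower. Eif4e, which encodes the cap-binding protein, was higher in all 3 of its probe sets. The brightest had 1353 on the OGD array and 1277 on the resting array, and the mean log2 difference was 0.092 ± 0.019 (SD, n = 3 probe sets). It therefore had a small spread between probe sets, but the difference is 1.06-fold in the brightest one, smaller than the SD of 0.15 over all measured genes on the log2 scale. Its relative Eif4e2, known as a cap-binding repressor, had 1524 on the OGD array and 1649.7 on the resting array (log2 difference -0.11). Eif4e3, another cap-binding relative, had 113 on the OGD array and 140.2 on the resting array, 1.24-fold lower (-0.31). Its other probe set was under the floor, so this difference too rests on a single probe set. The 3 cap-binding genes thus did not share a direction.

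The scaffold gene Eif4g1 had 4 probe sets, of which 2 were higher and 2 lower. The brightest had 609 on the OGD array and 642 on the resting array, and the mean log2 difference was -0.0053 ± 0.11 (SD, n = 4 probe sets). Eif4g2, which encodes a scaffold that lacks the eIF4E-binding site, had 7357 on the OGD array and 6754 on the resting array in its brightest probe set. Its other probe sets disagreed: 1 had 131.1 on the OGD array and 105.0 on the resting array, and the other had 176 on the OGD array and 188 on the resting array. The mean was 0.12 ± 0.21 (SD, n = 3 probe sets). Eif4g3 had 95.2 on the OGD array and 108.7 on the resting array (log2 difference -0.19), with its other probe set under the floor. No scaffold gene had a difference above the spread between its own probe sets where more than 1 was measured.

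The helicase genes were higher for the 2 that act in scanning. Eif4a2 had 1044 on the OGD array and 922 on the resting array, 1.13-fold higher, and its log2 difference of 0.18 was the highest of all 52 members. Its other probe set was under the floor on both arrays, so this difference rests on a single probe set. Eif4a1 had 5187 on the OGD array and 5031 on the resting array (0.044). Eif4a3, which serves in the exon junction complex rather than in initiation, had 339 on the OGD array and 354 on the resting array (-0.061). The helicase partners were both lower in both of their probe sets, Eif4b with a mean of -0.083 ± 0.034 and Eif4h with a mean of -0.059 ± 0.012 (SD, n = 2 probe sets each). Eif4enif1, which encodes the eIF4E transporter of processing bodies, had 290.0 on the OGD array and 292.3 on the resting array.

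**Figure D3:**
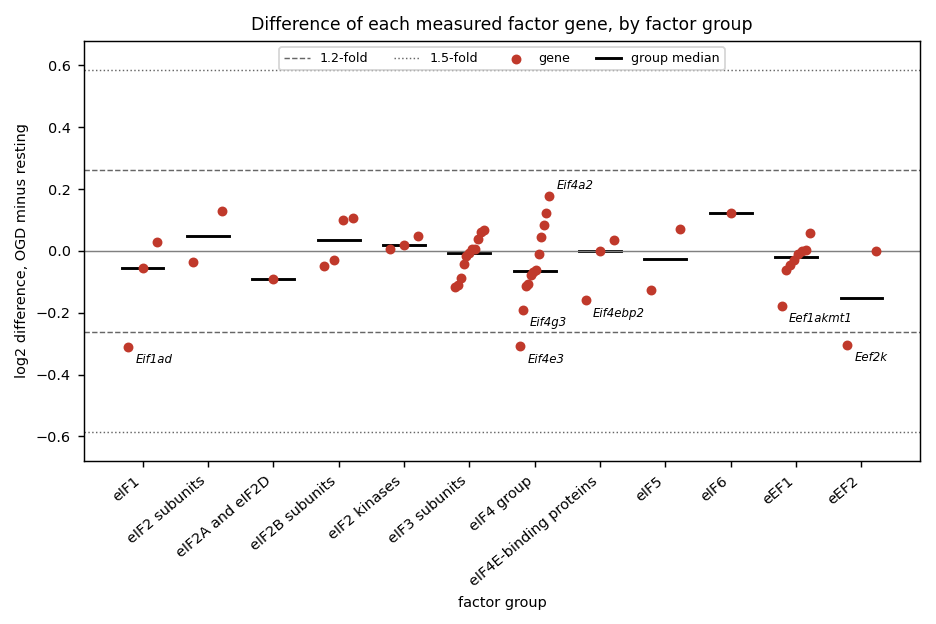
Log2 difference between the OGD and the resting array (vertical axis) of each of the 52 measured genes (red points) in 12 factor groups (horizontal axis), with the group median (black bar) and lines at 1.2-fold and 1.5-fold. Eif1ad, Eif4e3 and Eef2k are the points below the lower 1.2-fold line, and Eif4a2 is the highest point.

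The eIF4E-binding proteins compete with eIF4G for eIF4E. Eif4ebp1 had 246 on both arrays, equal to the last digit deposited. Exactly equal values were found for 4 of the 93 member probe sets (4.30%), against 8.70% of all non-control probe sets, for a reason not given, so equality need not show an unchanged level. Eif4ebp2, the form known to predominate in the brain, had 29.0 on the OGD array and 32.4 on the resting array, 1.12-fold lower. Eif4ebp3 had 129.1 on the OGD array and 126.0 on the resting array. All 3 rest on 1 probe set each, and none reached 1.2-fold.

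The factors numbered 5 and 6 were represented by Eif5a, Eif5b and Eif6. Eif5b, the GTPase that joins the subunits, had 561 on the OGD array and 612 on the resting array in its brightest probe set (log2 difference -0.13) and 383 on both arrays in another. Eif5a, whose product carries hypusine and helps the elongating ribosome through difficult peptide bonds, had 1828 on the OGD array and 1739 on the resting array (0.072). Eif6, which keeps the subunits apart until they are mature, had 392.4 on the OGD array and 360.0 on the resting array, 1.09-fold higher (0.12). Eif5a2 was under the floor on both arrays. The median over Eif5a and Eif5b, -0.027, was 0.0027 after quantile and 0.0076 after loess scaling.

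By name, the Eef1 and Eef2 symbols gave 11 genes, of which 10 were measured, 2 higher, 7 lower and 1 equal, with a median of -0.020. The Eif symbols, Eif5a among them, gave 42 measured of 49 genes, 19 higher, 22 lower and 1 equal, with a median of -0.0091. Among all measured genes 42.8% were higher and 51.3% lower, and both sets of symbols rest on few genes. Eef1a1, which encodes the factor that delivers aminoacyl-tRNA in most cells, had 7728 on the OGD array and 7709.9 on the resting array. Its other probe set had 4711 on the OGD array and 4363 on the resting array, and the mean was 0.057 ± 0.076 (SD, n = 2 probe sets). Eef1a2, the form known from neurons and muscle, was at 24.1 on both arrays, close to the floor. The exchange factor subunits were slightly lower: Eef1b2 had 1859 on the OGD array and 1917 on the resting array, and Eef1d had 2369 on the OGD array and 2474 on the resting array. The log2 difference of Eef1b2, -0.045, was 0.033 after quantile scaling. Eef1g had 1997 on the OGD array and 2012 on the resting array, a log2 difference of -0.011 that became 0.021 after loess scaling. Eef1e1, a component of the aminoacyl-tRNA synthetase complex, had 29.7 on the OGD array and 30.3 on the resting array.

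The lysine methyltransferase genes of eEF1A did not share a direction. Eef1akmt1 had 165.7 on the OGD array and 187.4 on the resting array, 1.13-fold lower. Eef1akmt4 had 64.4 on the OGD array and 61.8 on the resting array, and Eef1akmt2 was under the floor on both.

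Eef2, which encodes the translocation factor, had 6048 on the OGD array and 6051 on the resting array. The log2 difference of -0.00066 was 0.0085 after median centring, 0.036 after quantile and 0.027 after loess scaling. Its other probe set had 294 on the OGD array and 303 on the resting array. Eef2k, the gene of the kinase that inhibits eEF2, had 21.7 on the OGD array and 26.8 on the resting array, 1.23-fold lower (log2 difference -0.30). The OGD value stood just above the floor of 19.7, and the other 3 probe sets of Eef2k were under it on both arrays. With the higher floor the gene was not measured.

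The only spread that these files allow is that between probe sets of 1 gene, which read the same RNA and give no error across cultures. It was measured for 16 members for which several probe sets exceeded the floor on both arrays. The pooled SD of the log2 difference was 0.12, against 0.15 over 1902 such genes of the whole array. All probe sets went one way for 8 of the 16, with Eif4e, Eif3a and Eef1a1 higher and Eif3c, Eif4b, Eif4h, Eef1g and Eef2 lower. In the remaining 8 they differed in sign or included an equal one. The widest disagreements were in Eif3k (SD 0.22), Eif4g2 (0.21) and Eif3h (0.19). Eif3k had 1288 on the OGD array and 1390.3 on the resting array in its brightest probe set, but 36.1 on the OGD array and 31.5 on the resting array in the other. Eif3h had a dim probe set with 34.4 on the OGD array and 41.1 on the resting array. Over all 72 member probe sets above the floor 1 was higher by 1.2-fold or more, that of Eif4g2 at 131.1, and 3 were lower, together 5.56%, beside 8.1% of all such probe sets.

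**Figure D4:**
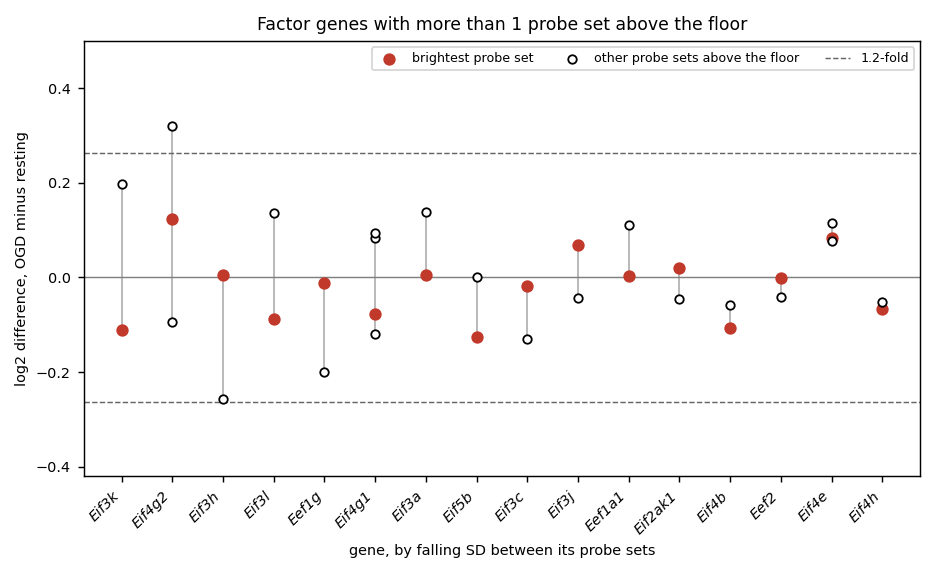
Log2 difference between the OGD and the resting array (vertical axis) for each probe set above the floor of the 16 factor genes with more than 1 such probe set (horizontal axis), with the brightest in red and the others open. Probe sets of Eif4e and Eif4h lie close together, whereas those of Eif3k, Eif4g2 and Eif3h are wide apart.

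The RefSeq table names 105 pseudogenes after 32 of the 60 genes, among them 20 of Eef1a1, 16 of Eef1g, 10 of Eif4e and 8 of Eif4a1. Whether the probes of these genes also match pseudogene transcripts was not tested.

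Beyond the factors themselves, 45 other genes of translation and its control were looked at, covering release and recycling factors, poly(A)-binding proteins, the mTOR pathway, eIF2 phosphatase subunits and mitochondrial factors. Of these, 41 had a probe set of their own and 37 were measured, with 17 higher, 17 lower and 3 equal on the OGD array. Their median difference was 0, and 0 reached 1.2-fold, beside 7.53% of all measured genes. The ends of the list, named after their values were seen, were Deptor, an mTOR inhibitor, with 22.9 on the OGD array and 27.3 on the resting array, and Rptor, the mTOR partner raptor, with 47.2 on the OGD array and 40.4 on the resting array.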

How the data were processed

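RNA of 1 OGD and 1 resting array was extracted with TRIzol, reverse transcribed from oligo(dT) and labelled with biotin, per the labels' protocols. The deposited values are intensities on a linear scale, read as such from their range of 2.73 to 19778 on the OGD array and 2.75 to 19692 on the resting array. How the authors corrected background, summarised probes and scaled arrays is not stated in the sources used here. Scaled values would hide a shift common to all genes.

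Probe sets were named from the platform annotation: of 31042 besides 57 array controls, 20826 named 1 gene, 436 several and 9780 none here. Values under the floor were set to it, and log2 values were subtracted (OGD minus resting) in Python 3.11.15 with pandas 2.3.3 and statsmodels 0.14.6. No test across samples is possible, so genes were counted at 1.5-fold and 1.2-fold, and the number of arrays limits the precision. The calculation was tested on simulated data with added differences past 1.5-fold, larger than those of the members. Differences near 1.2-fold were not covered by it. The members and lists were chosen with earlier results of these data known.

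Named with values were members past 1.2-fold, the ends of each factor group, 20 central members where measured, the 3 members with the widest spread between probe sets, and the genes under the floor. Other members and promoters were named after their values were seen. Alternatives were other floors, scalings, probe set choices, a pseudocount and current symbols.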

Additional observations from a re-analysis of the deposited data

How the results depend on the processing

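The count of members past 1.5-fold, 0 in each direction, and the 3 genes past 1.2-fold lower held under median centring, quantile and loess scaling. Under the floors tried and the pseudocount 2 to 4 genes were past 1.2-fold lower, and Eef2k was not among them with the higher floor or the pseudocount. With each probe set counted, 1 was higher by 1.2-fold, and in the second brightest probe sets, measured for 16 genes, 0 were lower. The 3 genes past 1.2-fold lower could not enter that last count. Eif1ad has a single probe set, and the second brightest ones of Eif4e3 and Eef2k were under the floor. The members' median of -0.011 was 0.0095 with quantile and 0.0099 with loess scaling. The median of the eEF2 group, -0.15, was -0.00066 with the higher floor, where Eef2 alone is left, and -0.040 with each probe set counted. Among the other translation genes, 1 was higher and 1 lower by 1.2-fold in the second brightest probe sets and likewise with each probe set counted, and their median in the second brightest was -0.055. Of 52 measured members, 7 changed sign under a scaling, each with a log2 difference of 0.045 or less in size. No paired analysis was possible because each group holds 1 array. A difference in a single gene has no replicate check, and genes near the floor, Eef2k among them, are the least certain.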

Other observations

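The annotation assigns 5 probe sets to a factor gene together with a related gene, and these were outside the comparison. All 3 probe sets shared by Eif5, the GTPase-activating protein of eIF2, and its pseudogene Eif5-ps1 were higher on the OGD array. The brightest had 3450 on the OGD array and 3122 on the resting array (log2 difference 0.14). Another had 489 on the OGD array and 412 on the resting array (0.25). The last had 461 on the OGD array against 389.6 at rest (0.24). The probe set shared by Eif3e, an eIF3 subunit, and Eif3el1 had 3114 on the OGD array and 3180.5 on the resting array. The one shared by Eif2s3 and Eif2s3y, the gamma subunit genes of eIF2, had 31.7 on the OGD array and 29.4 on the resting array. None of these 5 reached 1.2-fold.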
